A study of Rattus norvegicus with 17 samples.

Results

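The Kruppel-like and C/EBP transcription factors described here are 7 genes of the rat: Klf4, Klf6, Klf7, Klf9, Klf10, Cebpb and Cebpd. They were chosen by name, as all probe sets of the array whose only gene symbol was 1 of these 7, which gave 16 of the 31099 probe sets. A probe set is a group of short probes that together measure a transcript. Of the 16, 9 were bright enough to be tested among 18625 probe sets in all: 1 for Klf4, 3 for Klf6, 2 each for Klf7 and Klf9, and 1 for Klf10. Those of Cebpb and Cebpd were too dim for the main tests and are given as signals.

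RNA was measured on 17 Affymetrix arrays, each hybridised with amplified RNA from 1000 spinal cord neurons that had been labelled backwards along their axons with a tracer and cut out by laser from frozen, unfixed sections. Regenerating neurons (n = 7) and non-regenerating neurons (n = 7) came from the same 7 rats, and traced neurons that had not been axotomised (n = 3) came from 3 other rats. The strain, age, sex, kind of lesion, time after it and tracer were not given in the sources used here. Of the 7 rats with both kinds of sample, 5 carried names that begin with MM and 2 names that begin with MOON. All 3 rats without axotomy were MM animals, and 1 of them, MM15, was labelled as a high yield replicate. Each array pooled many cells, so fewer cells of a type and less RNA per cell cannot be told apart in any value below.

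Kruppel-like factors are zinc finger proteins that bind GC boxes and CACCC boxes in promoters. In cultured central neurons Klf4 and Klf9 are known to restrain axon growth, whereas Klf6 and Klf7 are known to promote it. Klf9 is also known as a gene induced by thyroid hormone and glucocorticoids, and Klf10 as an early target of TGF-beta. C/EBP factors are leucine zipper proteins, and Cebpb and Cebpd are known to be induced by cytokines and after injury to peripheral neurons.

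Klf7 had the largest log2 fold change among the main probe sets of the tested members, and Klf9 was the brightest member. Their upstream promoter sequences are shown because Kruppel-like factors are known to bind the GC and CACCC boxes in such sequence. Each holds the 250 bases before the RefSeq transcript start in rat build GRCr8, 5′ to 3′ along the gene. Klf7 lies on the minus strand at chr9:73020057-73020306 and Klf9 on the plus strand at chr1:230126396-230126645. Capitals mark a GC box (GGGCGG) or a CACCC box (CACCC), on either strand, so that a CACCC box on the opposite strand reads GGGTG.
Klf7: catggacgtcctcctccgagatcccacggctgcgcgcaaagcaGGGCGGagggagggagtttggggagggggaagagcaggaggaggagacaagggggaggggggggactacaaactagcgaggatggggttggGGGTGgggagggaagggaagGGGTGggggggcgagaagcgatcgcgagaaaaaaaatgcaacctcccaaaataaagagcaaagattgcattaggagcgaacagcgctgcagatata
Klf9: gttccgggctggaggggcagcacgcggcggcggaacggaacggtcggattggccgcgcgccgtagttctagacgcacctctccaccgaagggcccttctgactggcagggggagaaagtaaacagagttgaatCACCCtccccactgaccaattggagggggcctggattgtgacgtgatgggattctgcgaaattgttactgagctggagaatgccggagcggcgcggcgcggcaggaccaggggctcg
In this window Klf7 had 1 GC box and 2 CACCC boxes, and Klf9 had 0 GC boxes and 1 CACCC box. Of 33469 promoter windows of that length, 30.5% held a GC box and 49.2% a CACCC box on either strand. Klf4 had neither box, Klf6 had 1 GC box, and Cebpb had 2 GC boxes and 1 CACCC box. The C/EBP motif TTGCNNAA was in 0 of these 5 promoters, and in 9.22% of all windows. The 5 promoters are those of the 7 members that were matched, and the matches are a description of the letters.

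Signals are given on the linear scale of the deposited values. Tests used limma on log2(signal + 16), so that a log2 fold change understates the change of a dim probe set. A probe set passed at a p under 0.05 after Benjamini-Hochberg adjustment over the whole tested table. No member passed in any comparison. Between regenerating and non-regenerating neurons 0 of 9 member probe sets passed, where 0.0161% of all tested probe sets did. Between non-regenerating neurons and those without axotomy the count was 0 of 9 against 0.043%, and between regenerating neurons and those without axotomy 0 of 9 against 0.215%. These last comparisons share the 3 arrays without axotomy, and each shares 7 arrays with the comparison within animals.

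Without adjustment for the number of tests, limma gave a p under 0.05 for 2 of 9 member probe sets between regenerating and non-regenerating neurons, where 7.08% of all tested probe sets had one. The count was 2 of 9 against 10.3% for non-regenerating neurons, and 3 of 9 against 23.6% for regenerating neurons, each set against neurons without axotomy. In the same order, 5, 2 and 3 of the 9 had a log2 fold change above 0. Their median log2 fold changes were 0.07, -0.46 and -0.38, beside medians of 0.00, -0.12 and -0.12 over all tested probe sets. Centring each array on its median signal moved those overall medians to 0.03, 0.24 and 0.26, so the small changes below depend on where an array is centred. The counts of unadjusted p include Klf10 within animals and the second Klf9 probe set for regenerating neurons against those without axotomy. Both cleared the brightness limit through the group where each was highest, as given below.

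**Figure D1:**
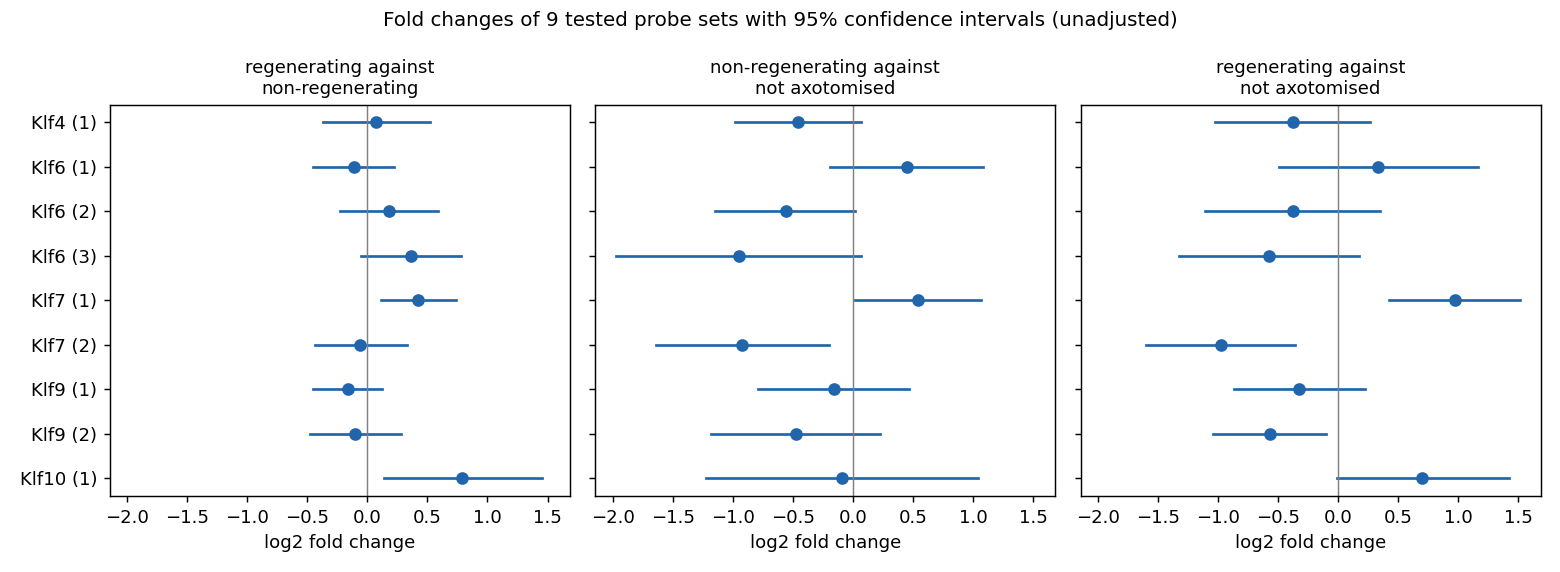
Log2 fold change (horizontal axis) of each of the 9 tested member probe sets (vertical axis, gene with the probe set's number) in the 3 comparisons, with points for limma's estimate and lines for its 95% confidence interval without adjustment for the number of tests. The intervals of the first Klf7 probe set lie above 0 in all 3 panels, those of the second Klf7 probe set lie below 0 in both comparisons with neurons without axotomy, that of the second Klf9 probe set lies below 0 for regenerating neurons against those without axotomy, and that of Klf10 lies above 0 in the comparison within animals.

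Klf7, a factor known to promote axon growth, had the largest log2 fold change among the main probe sets of the tested members. Its main probe set (1377618_at) had signals of 541, 618 and 917 (lowest, median and highest) in regenerating neurons, with a mean of 686 ± 166 (SD, n = 7). In non-regenerating neurons the lowest, median and highest were 395, 439 and 651, with a mean of 505 ± 107 (SD, n = 7). The 3 samples without axotomy were at 240, 370 and 422, with a mean of 344 ± 93.9 (SD, n = 3). Every regenerating sample was above all 3 samples without axotomy, and the non-regenerating samples overlapped both groups. Of all tested probe sets 11.7% had no overlap between regenerating samples and those without axotomy.

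Regenerating neurons were 1.95-fold above neurons without axotomy at this probe set, a log2 fold change of 0.97 (SE 0.25, 95% interval 0.42 to 1.51, limma adjusted p = 0.068). That is above the threshold of 0.05. The adjustment gave the same value to probe sets with unequal unadjusted limma p, such as 0.0018 for Klf7 and 0.00024 for Tgfbr1. An adjusted p of 0.068 is therefore not particular to Klf7. The main Klf7 probe set passed with an offset of 64 (log2 fold change 0.88, adjusted p = 0.048), with arrays weighted by their quality (0.64, adjusted p = 0.02) and without the regenerating sample of MM17 (1.01, adjusted p = 0.039). Over all probe sets 40 passed in the main fit of this comparison and 1 to 3131 in other settings. For non-regenerating against not axotomised neurons these counts were 8 and 2 to 2440. A pass in another setting, here and below, is therefore not by itself particular to a gene. Over all settings tried the log2 fold change lay between 0.61 and 1.36 and the adjusted p between 0.02 and 0.76. MM15, the lowest of the samples without axotomy, had a Gapdh ratio of 11.7, where the 13 MM arrays ran from 10 to 150. Without MM15 the log2 fold change was 0.74 with an adjusted p of 0.39. The 2 samples left, at 370 and 422, were still below every regenerating sample. Among MM animals alone the log2 fold change was 0.86, with an adjusted p of 0.083.

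Within animals, Klf7 was 1.34-fold higher in regenerating than in non-regenerating neurons at its main probe set, a log2 fold change of 0.42 (SE 0.15, 95% interval 0.11 to 0.74, limma adjusted p = 0.68). It was higher in 5 of 7 animals. The log2 difference was 1.11 in MOON265, 0.69 in MOON266, 0.61 in MM14, 0.49 in MM17 and 0.29 in MM16, and it was -0.07 in MM11 and -0.15 in MM13. The mean was 0.90 over the 2 MOON animals and 0.23 over the 5 MM animals, so the size of the pooled value rests in part on the MOON animals. Non-regenerating neurons were 1.46-fold above neurons without axotomy, a log2 fold change of 0.54 (SE 0.25, 95% interval 0.02 to 1.07, limma adjusted p = 0.47).

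The other tested Klf7 probe set (1384497_at) went the other way. It had signals of 57.6, 91.3 and 144 (lowest, median and highest) in regenerating neurons and of 40.8, 94 and 172 in non-regenerating neurons. The 3 samples without axotomy were at 143, 218 and 226, so that the groups met only at the lowest of them. Its log2 fold change against neurons without axotomy was -0.98 for regenerating neurons (SE 0.29, limma adjusted p = 0.077) and -0.92 for non-regenerating neurons (SE 0.34, adjusted p = 0.47). Both passed with array weights, at -1.01 with an adjusted p of 0.0096 and at -0.98 with an adjusted p of 0.019, and the first also passed without the regenerating sample of MM17, at -1.08 with an adjusted p of 0.037. Between regenerating and non-regenerating neurons it was -0.06 (SE 0.18, 95% interval -0.44 to 0.33).

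Over the 13 arrays of MM animals the log2 signals of the 2 tested Klf7 probe sets had a Pearson's r of -0.66 and a Spearman's rho of -0.66, as a description of arrays that share animals and labelling. The remaining probe sets of Klf7 were dim, at most 30.6 and 10 on any array. Which Klf7 transcripts each probe set reads was not tested, so these data give no common direction for Klf7 as a gene.

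**Figure D2:**
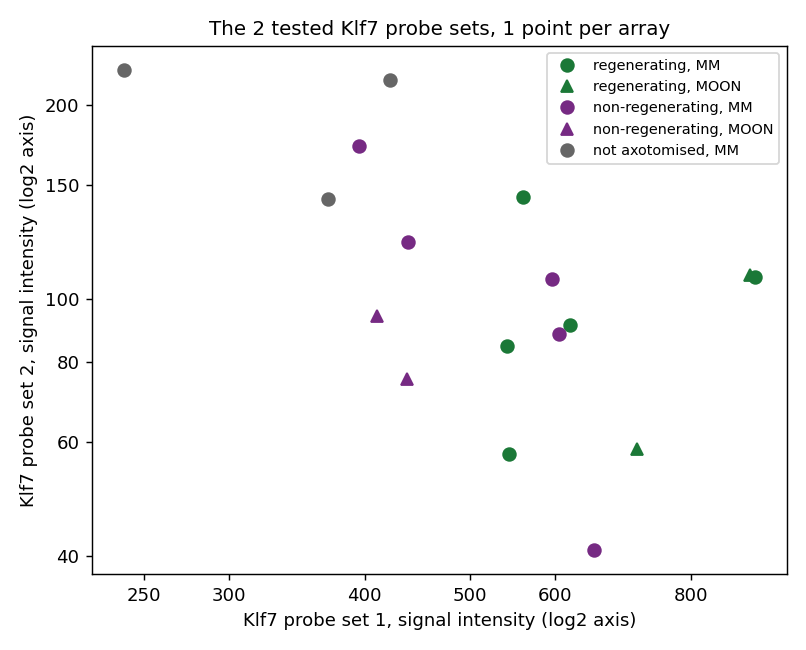
Signal intensity of the main Klf7 probe set (horizontal axis, log2) against that of the other tested Klf7 probe set (vertical axis, log2), 1 point per array, with circles for MM and triangles for MOON animals. The 3 samples without axotomy, at 240 to 422 on the horizontal axis and 143 to 226 on the vertical axis, lie at the upper left, and the regenerating samples lie to their right.

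Klf6, the close relative of Klf7 that is also known to promote axon growth, did not pass in any comparison. Its main probe set (1388986_at) had signals of 221, 262 and 766 (lowest, median and highest) in regenerating neurons and of 266, 309 and 642 in non-regenerating neurons. The 3 samples without axotomy were at 210, 249 and 371, within the range of the other groups or just under it. The log2 fold change was -0.11 (SE 0.16, 95% interval -0.45 to 0.22) within animals, 0.45 (SE 0.30) for non-regenerating and 0.33 (SE 0.39) for regenerating neurons against those without axotomy, with limma adjusted p of 0.88, 0.54 and 0.65.

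Most of the spread of this Klf6 probe set lay between animals of different name prefix. The 4 MOON arrays were at 445, 642, 682 and 766, and the 13 MM arrays ran from 210 over a median of 266 to 486. Within animals the regenerating sample was higher in both MOON animals, with a mean log2 difference of 0.42, and in 1 of 5 MM animals, with a mean of -0.33. Among MM animals alone the log2 fold change of regenerating neurons against those without axotomy was -0.08, so its sign rests on the MOON arrays.

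The other Klf6 probe sets were dimmer and pointed the other way between animals. At 1387060_at the mean signals were 75.1 ± 31.3 (SD, n = 7) with regeneration, 60.7 ± 17 (SD, n = 7) without it and 96.1 ± 16.5 (SD, n = 3) without axotomy. At 1395557_at they were 55.4 ± 29.1, 45.1 ± 38.3 and 85 ± 21.3 in the same order. Non-regenerating neurons were below neurons without axotomy by log2 fold changes of -0.56 (SE 0.27, limma adjusted p = 0.47) and -0.95 (SE 0.48, adjusted p = 0.47), which passed only with array weights, at -0.62 (adjusted p = 0.047) and -1.03 (adjusted p = 0.045). On the 4 MOON arrays they were at 28 to 47.1 and 11.2 to 28.9, and on the 13 MM arrays at 46.1 to 110 and 12 to 107, the opposite order to that of the main Klf6 probe set. The groups overlapped at all 3 Klf6 probe sets.

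Klf4, known to restrain axon growth, had its lowest, median and highest signals at 252, 342 and 691 in regenerating neurons and at 250, 412 and 505 in non-regenerating neurons (1387260_at). The 3 samples without axotomy were at 463, 524 and 576, above 5 of 7 regenerating samples and 5 of 7 non-regenerating samples, and the groups overlapped. The mean signals were 420 ± 174 (SD, n = 7), 384 ± 96 (SD, n = 7) and 521 ± 56.9 (SD, n = 3). Klf4 was 1.37-fold lower in non-regenerating neurons than in neurons without axotomy, a log2 fold change of -0.46 (SE 0.25, 95% interval -0.98 to 0.07, limma adjusted p = 0.48). For regenerating neurons it was -0.38 (SE 0.30, 95% interval -1.03 to 0.26, adjusted p = 0.48).

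Within animals Klf4 showed no shared direction. It was higher in the regenerating sample of 4 of 7 animals, with log2 differences from -0.89 to 1.41, and the log2 fold change was 0.07 (SE 0.21, 95% interval -0.37 to 0.52, limma adjusted p = 0.95). The 2 highest regenerating samples, MM17 at 691 and MM13 at 648, stood well above the other 5, which lay between 252 and 354. Without MM17 the log2 fold change within animals was -0.15.

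Klf9, the other member known to restrain axon growth, was the brightest member: its main probe set (1370209_at) was brighter on average than 98.5% of all probe sets. Its lowest, median and highest signals were 1664, 2154 and 3358 in regenerating neurons and 1702, 2180 and 4636 in non-regenerating neurons. The 3 samples without axotomy were at 2464, 2583 and 3849. The groups overlapped throughout, and the 2 highest signals came from the non-regenerating sample of MM17 and from MM15, the 2 arrays with the lowest ratio of 3 prime to 5 prime signal of Gapdh (10 and 11.7, the others at 20.7 to 150). The part of that ratio in the Klf9 signals was not tested beyond the fit with it as a covariate.

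The mean Klf9 signals were 2387 ± 649 (SD, n = 7), 2730 ± 997 (SD, n = 7) and 2965 ± 768 (SD, n = 3) in regenerating, non-regenerating and not axotomised neurons. The log2 fold changes were -0.16 within animals (SE 0.14, 95% interval -0.45 to 0.12), -0.16 for non-regenerating (SE 0.29) and -0.33 for regenerating neurons (SE 0.26, 95% interval -0.87 to 0.22) against those without axotomy, with limma adjusted p of 0.78, 0.85 and 0.48. The interval within animals runs from a 0.731-fold to a 1.09-fold level in regenerating neurons. Non-regenerating against not axotomised neurons gave a log2 fold change of 0.20 with median centring and of 0.02 with the Gapdh ratio as a covariate.

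The second Klf9 probe set (1390076_at), close to the brightness limit of the tests, was at 23.8, 29.3 and 39.4 (lowest, median and highest) in regenerating neurons and at 42.2, 54.4 and 61.9 in the 3 samples without axotomy. These groups did not overlap, as at 2 of the 9 member probe sets in this comparison, the other being the main Klf7 probe set, where 11.7% of all tested probe sets had no overlap. The log2 fold change was -0.57 (SE 0.22, limma adjusted p = 0.14). The mean log2 value of this probe set was 6.09 without axotomy, 5.52 with regeneration and 5.62 without it. It thus cleared the brightness limit of 5.65 through the samples without axotomy. In non-regenerating neurons it ran from 14.9 over a median of 32.2 to 74.4, and its log2 fold change against neurons without axotomy was -0.47 (SE 0.33, adjusted p = 0.56). Between those groups 0 of 9 member probe sets had no overlap, and 2.56% of all tested probe sets did. The third Klf9 probe set was at most 22.4 on any array.

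**Figure D3:**
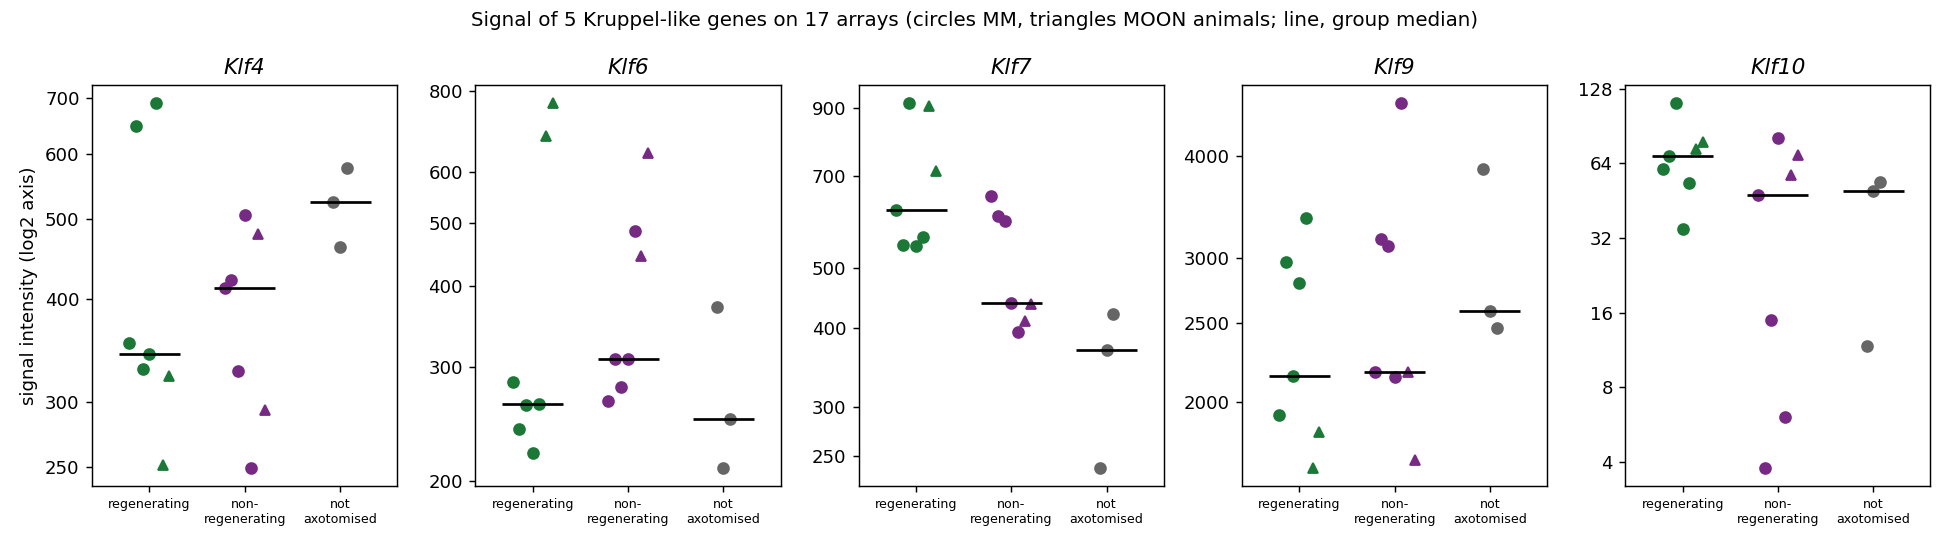
Signal intensity (vertical axes, log2, 1 scale per gene) of the main probe sets of Klf4, Klf6, Klf7, Klf9 and Klf10 in regenerating (n = 7), non-regenerating (n = 7) and not axotomised (n = 3) samples. Circles are MM and triangles MOON animals, and lines are group medians. Every regenerating sample of Klf7, at 541 or more, lies above the samples without axotomy, at 422 or less, whereas the groups of the other 4 genes overlap. Between regenerating and not axotomised samples 11.7% of all tested probe sets had no overlap.

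Klf10, known as an early target of TGF-beta, was dim, and over all 7 animals at an offset of 16 it had the largest log2 fold change of the tested members within animals. With an offset of 64 Klf10 and the main Klf7 probe set were both at 0.39, and in the MOON animals alone Klf10 was at 0.21 and Klf7 at 0.90. Its signals (1368650_at) were 34.8, 68.5 and 112 (lowest, median and highest) in regenerating neurons, with a mean of 68.7 ± 23.9 (SD, n = 7). In non-regenerating neurons they were 3.8, 47.9 and 80.9, with a mean of 40.1 ± 31.6 (SD, n = 7), and the 3 samples without axotomy were at 11.7, 49.4 and 53.9. All 7 regenerating samples were above a signal of 16, as were 4 of 7 non-regenerating samples and 2 of 3 without axotomy. The mean log2 value of Klf10 was 6.35 with regeneration, 5.56 without it and 5.65 without axotomy, beside a brightness limit of 5.65. Klf10 thus entered the tests through its regenerating samples. Its rank and its unadjusted limma p within animals carry that selection, and the size of this effect was not tested.

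Within animals Klf10 was 1.73-fold higher in regenerating neurons, a log2 fold change of 0.79 (SE 0.31, 95% interval 0.14 to 1.45, limma adjusted p = 0.68). It was higher in 6 of 7 animals: the log2 difference was 2.09 in MM13, 2.05 in MM14, 1.65 in MM17, 0.28 in MOON265, 0.27 in MM11 and 0.14 in MOON266, and it was -0.93 in MM16. The 3 large differences came from the 3 animals whose non-regenerating sample was lowest, at 3.8, 14.9 and 6.1. Across the settings the log2 fold change ranged from 0.21, in the MOON animals alone, to 1.15, with an offset of 4.

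Against neurons without axotomy, Klf10 had a log2 fold change of 0.70 in regenerating neurons (SE 0.34, 95% interval -0.01 to 1.42, limma adjusted p = 0.22) and of -0.09 in non-regenerating neurons (SE 0.53, 95% interval -1.22 to 1.04, adjusted p = 0.96). With the Gapdh ratio as a covariate the value for regenerating neurons was 0.22. Without MM15, the lowest of the samples without axotomy at 11.7, the value for regenerating neurons was 0.28 with an adjusted p of 0.80. The other 2 samples without axotomy, at 49.4 and 53.9, lay within the range of the regenerating samples.

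No member probe set had the same direction in all 7 animals, a property of 2.09% of all tested probe sets. The third Klf6 probe set, at 6 of 7 animals, and Klf10, also at 6 of 7, came nearest. The third Klf6 probe set had a log2 fold change of 0.36 within animals (SE 0.19, 95% interval -0.05 to 0.78, limma adjusted p = 0.70).

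**Figure D4:**
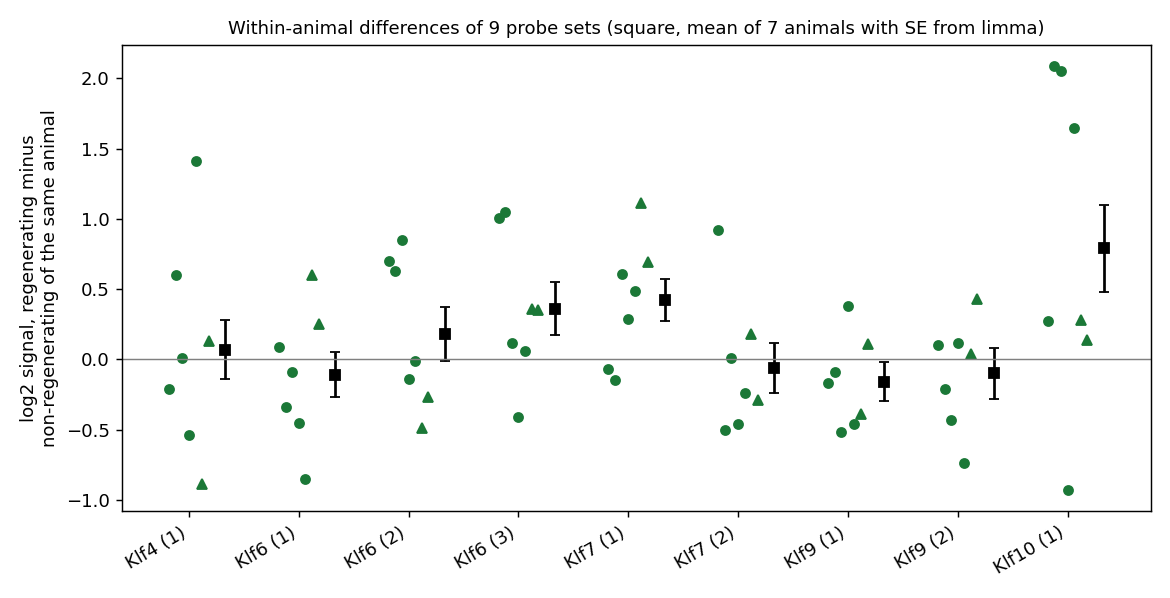
Log2 signal of the regenerating minus the non-regenerating sample of the same animal (vertical axis) for the 9 tested member probe sets, with circles for the 5 MM and triangles for the 2 MOON animals, and squares with bars for the mean and its SE from limma. Klf10 spans -0.93 to 2.09 and the main Klf7 probe set -0.15 to 1.11.

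Cebpb, a factor known to be induced by interleukin signals, was near the floor of the arrays. Its only probe set (1387087_at) had signals of 1.4 to 7.7 in regenerating neurons, 1.5 to 18 in non-regenerating neurons and 1.3, 4.9 and 5.3 without axotomy. The non-regenerating sample of MM14, at 18, was the only array above 16. At this brightness neither a level nor a difference of Cebpb could be measured.

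Cebpd, known as an injury and glucocorticoid response gene, had 3 probe sets, all below the brightness limit. The brightest (1387343_at) was at 5.2, 23.1 and 35.4 (lowest, median and highest) in regenerating neurons, at 12.7, 36.7 and 75.7 in non-regenerating neurons and at 40.6, 43.7 and 133 without axotomy. All 7 regenerating samples lay below the 3 samples without axotomy, of which MM15 was the highest by far. This probe set was not among the tested ones, of which 11.7% had no overlap between these groups. In a fit with no brightness limit the log2 fold change was -1.17 for regenerating (SE 0.37, limma adjusted p = 0.099) and -0.77 for non-regenerating neurons (SE 0.42, adjusted p = 0.49) against those without axotomy, and -0.40 within animals (SE 0.27, adjusted p = 0.81). The other Cebpd probe sets gave -0.43 and -0.18 for regenerating neurons against those without axotomy, and none of their arrays was above 45.2.

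**Figure D5:**
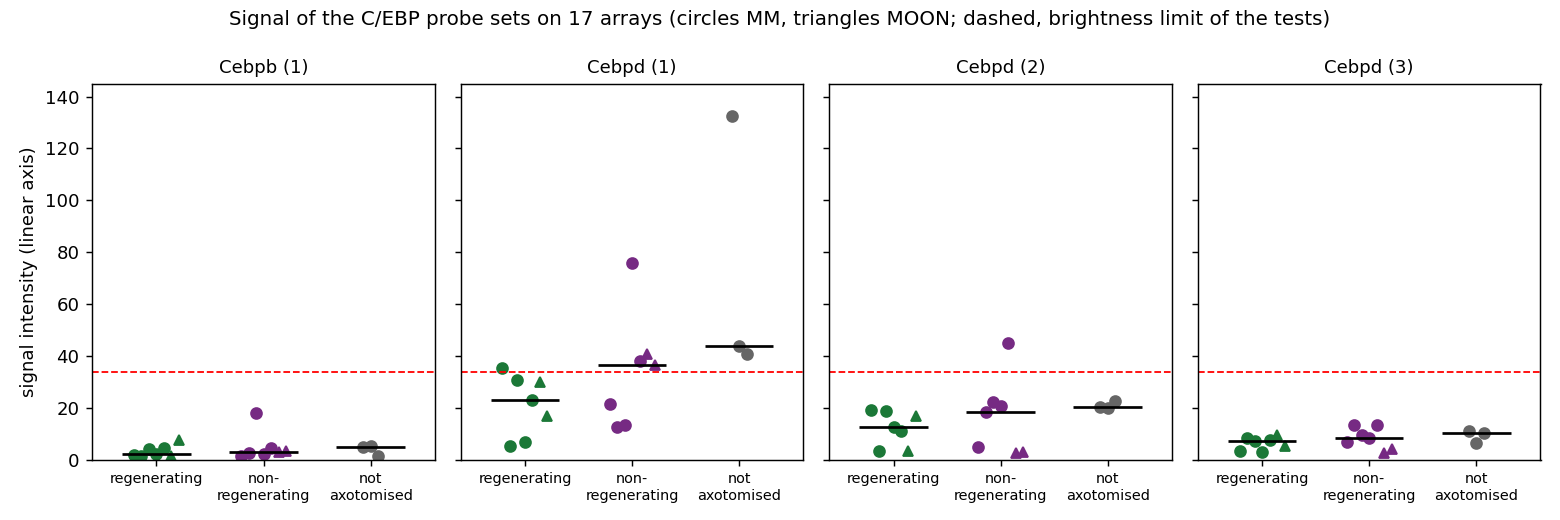
Signal intensity (vertical axis, linear) of the Cebpb probe set and the 3 Cebpd probe sets in regenerating (n = 7), non-regenerating (n = 7) and not axotomised (n = 3) samples, with circles for MM and triangles for MOON animals and lines for group medians. The dashed line is the brightness limit of the tests, at a signal of 34, and only the brightest Cebpd probe set has all 3 samples without axotomy above it.

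Of the other Kruppel-like and Sp family genes, 8 of 20 were tested and 0 passed in any comparison. Their median log2 fold changes were -0.09 within animals, -0.09 for non-regenerating and -0.18 for regenerating neurons against those without axotomy. In the same order 1, 1 and 2 genes had an unadjusted limma p under 0.05. Of all tested probe sets 7.08%, 10.3% and 23.6% had one, the shares beside which the counts of this and the lists below stand. Sp1, a widely expressed activator that binds GC boxes, was lower in regenerating than in non-regenerating neurons by a log2 fold change of -0.36 (SE 0.15, limma adjusted p = 0.68), with mean signals of 252 and 335. Against neurons without axotomy, at a mean of 384, regenerating neurons gave -0.59 (SE 0.25, adjusted p = 0.17). Klf16, another GC box factor, gave -0.72 (SE 0.29, adjusted p = 0.47) in non-regenerating and -0.62 (SE 0.28, adjusted p = 0.20) in regenerating neurons against those without axotomy. The second of these was -0.09 with the Gapdh ratio as a covariate, and the first passed with array weights (adjusted p = 0.035), as did Sp1 in regenerating against not axotomised neurons (adjusted p = 0.034).

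Of the other C/EBP family genes, 4 of 5 were tested and 0 passed, with 0, 1 and 1 at an unadjusted limma p under 0.05 and medians of 0.04, 0.28 and 0.24 in that order of comparisons. Cebpg, a partner that pairs with other C/EBP proteins, had a mean signal of 350 without axotomy, 560 in non-regenerating and 587 in regenerating neurons. Its log2 fold change was 0.73 (SE 0.24, limma adjusted p = 0.093) for regenerating and 0.66 (SE 0.23, adjusted p = 0.47) for non-regenerating neurons against those without axotomy, and 0.06 (SE 0.12, adjusted p = 0.91) within animals. It kept its direction in all settings tried and passed in none.

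Of 8 genes fixed as known targets or partners of these factors in neurons, 6 were tested and 0 passed, with 2, 1 and 1 at an unadjusted limma p under 0.05 and medians of -0.06, 0.26 and 0.16. Stat3, a cytokine signal transducer that Klf4 is known to bind, was higher in regenerating neurons within animals by a log2 fold change of 0.43 (SE 0.15, limma adjusted p = 0.68), with mean signals of 434 and 304. Sprr1a, an injury gene known to aid axon growth, was higher by 0.60 (SE 0.21, adjusted p = 0.68), with mean signals of 383 and 228. The Sprr1a value was 0.24 in the MM animals alone and 1.52 in the MOON animals alone, so its size rests in part on the 2 MOON animals. L1cam, an axonal adhesion molecule reported as a Klf7 target, was at a mean of 902 without axotomy, 502 in non-regenerating and 425 in regenerating neurons. Its log2 fold changes against neurons without axotomy were -1.01 for non-regenerating (SE 0.44, limma adjusted p = 0.47) and -1.07 for regenerating neurons (SE 0.30, adjusted p = 0.071), and it passed in 1 and 2 of the 23 other settings.

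Of 14 genes of glucocorticoid, thyroid hormone and TGF-beta signalling, 11 were tested and 0 passed, with 0, 1 and 2 at an unadjusted limma p under 0.05 and medians of 0.03, 0.01 and 0.04. Tgfbr1, a TGF-beta receptor upstream of Klf10, came nearest, with mean signals of 494 without axotomy, 1257 in non-regenerating and 1227 in regenerating neurons. Its log2 fold changes against neurons without axotomy were 1.26 for regenerating (SE 0.26, limma adjusted p = 0.068) and 1.32 for non-regenerating neurons (SE 0.23, adjusted p = 0.072), and it passed in 7 and 5 of the 23 other settings. Thra, the thyroid hormone receptor alpha, gave -1.0 (SE 0.31, adjusted p = 0.085) in regenerating neurons against those without axotomy, with mean signals of 240 and 514. It passed in 1 of the 23 other settings, and was -0.43 with the Gapdh ratio as a covariate and -0.63 without MM15.

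Of 10 genes listed for cytokine signalling and response, not all of them known C/EBP targets, 3 were tested and 0 passed. They had 0, 2 and 2 at an unadjusted limma p under 0.05 and medians of 0.19, 0.82 and 1.01. C3, a complement component, had mean signals of 435, 412 and 71.5 in regenerating, non-regenerating and not axotomised neurons, and log2 fold changes of 2.03 (SE 0.55, limma adjusted p = 0.069) and 1.83 (SE 0.57, adjusted p = 0.47) against the last. It passed in 6 and 1 of the 23 other settings. Cp, the copper protein ceruloplasmin, gave 1.01 for regenerating (SE 0.36, limma adjusted p = 0.12) and 0.82 for non-regenerating neurons (SE 0.34, adjusted p = 0.47). Without MM15 the Cp values were 0.58 and 0.38, and the first passed with array weights (adjusted p = 0.039). Both C3 and Cp are also made by glia and macrophages.

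Markers of microglia and macrophages were higher in the axotomised samples. The summed signal of the 12 on the list, of which 8 were tested, was 6156 to 11741 in regenerating samples, 6775 to 11256 in non-regenerating samples and 3516 to 4652 without axotomy, and all 8 were higher in both axotomised groups. Of these 8, 3 rose in regenerating and 1 in non-regenerating neurons (limma, adjusted p under 0.05). The summed signal of 8 astrocyte markers was 11775 to 19698, 11576 to 19300 and 10785 to 11896 in the same order, so that the groups overlapped, and 1 of the 8, Gfap, rose in regenerating neurons and 0 in non-regenerating neurons (limma, 4 of the 8 at an unadjusted p under 0.05 in the latter). The 6 motor neuron markers summed to 881 to 3923 in regenerating samples, 498 to 938 in non-regenerating samples and 540 to 722 without axotomy. Within animals, where Klf7, Klf10, Stat3 and Sprr1a were compared too, 1 of the 6 rose in regenerating neurons, Calca, the CGRP gene, by a log2 fold change of 2.22 (SE 0.32, limma adjusted p = 0.031), and 5 of the 6 had an unadjusted p under 0.05. Isl1, a motor neuron transcription factor, was the exception at -0.02 (SE 0.21, adjusted p = 0.99), and against neurons without axotomy it gave -1.40 (SE 0.38, adjusted p = 0.071) in regenerating and -1.37 (SE 0.48, adjusted p = 0.47) in non-regenerating neurons, opposite to the sum in regenerating neurons. All 7 neuron markers were tested, and their sums overlapped between the groups. No marker on the oligodendrocyte, endothelial, fibroblast and pericyte, Schwann cell and blood lists passed in any comparison. Within animals 6 of 6 fibroblast and pericyte markers (median log2 fold change 0.2) and 2 of 2 Schwann cell markers (0.58) were higher in regenerating neurons. So were 2 of 6 oligodendrocyte, 3 of 6 endothelial and 1 of 2 blood markers. The part of these cell markers in the values of the Kruppel-like and C/EBP genes was not tested.

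The named genes whose log2 signal followed each tested member most closely over the 13 MM arrays are given as a description, since those arrays share animals, labelling and brightness. For Klf7 they were Mrps6 (r = 0.95, rho = 0.92), Mapre1 (r = 0.95, rho = 0.87) and Itgb3bp (r = 0.93, rho = 0.88). For Klf9 they were Tmem47 (r = 0.97, rho = 0.98), Gpm6b (r = 0.96, rho = 0.97) and Paqr8 (r = 0.96, rho = 0.94). For Klf10 they were Pik3ca (r = 0.93, rho = 0.81), Yme1l1 (r = 0.92, rho = 0.86) and Rpp25l (r = 0.91, rho = 0.86).

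For Klf4 the closest genes were Phldb2 (r = 0.88, rho = 0.89), Dcn (r = 0.88, rho = 0.87) and Lef1 (r = 0.88, rho = 0.87), of which Dcn, decorin, is on the list of fibroblast markers. For Klf6 they were Casq2 (r = 0.90, rho = 0.82), Galnt2 (r = 0.89, rho = 0.74) and Cflar (r = 0.89, rho = 0.67). Among the members themselves the main probe sets of Klf9 and Klf10 ran opposite over these arrays (r = -0.76, rho = -0.74), and those of Klf4 and Klf9 showed little relation (r = -0.07, rho = 0.05).

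The 4 MOON arrays had median signals of 32.8 to 39 and the 13 MM arrays of 45.2 to 76.9. Array MM15 and the non-regenerating array of MM17 were least like the others: their log2 signals had a median r of 0.821 and 0.847 with those of the remaining arrays, where the other 15 had 0.905 to 0.949. Leaving these arrays out changed the number of members that passed in no comparison. Within animals both samples of MM17 were left out for this, and in regenerating against not axotomised neurons MM15 alone.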

How the data were processed

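Gene expression was measured in 17 samples of laser captured rat spinal neurons, 1 array each. Values deposited by the authors were linear signal intensities from GCOS (the Affymetrix array software), per the submitters' processing notes, and probe sets were named from the platform's gene table. The number of arrays limits the precision.

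Signals were raised by 16, about their 25th percentile, and log2 transformed. Left out were 57 control probe sets and the 12417 dimmest, those with a mean log2 value under the 40th percentile (5.65, a signal of 34). Groups were read from sample titles. The regenerating and non-regenerating samples were compared in a fit that has a term for each animal, and each was set against the not axotomised samples, in limma 3.58.1 with R 4.3.3 (lmFit, eBayes with trend). P-values were Benjamini-Hochberg adjusted over the 18625 tested probe sets. The steps were also run on simulated signals with known changes. Those signals had no animal or name prefix effects, so that run does not check the term for each animal. The animal names pair the samples, and deviations from group means correlated within animals with r = 0.34 to 0.71. Those deviations still hold the difference between MM and MOON arrays, and samples of different animals were not correlated. The r values therefore do not test the pairing.

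The main probe set of a gene is the one with the highest mean. Named genes were the 7 members, up to 3 genes per list and comparison with the smallest p (of these, the ones with an unadjusted p under 0.05) and the 3 genes most correlated with each member. The members and lists were chosen with earlier results of these data known. Alternatives were other scalings, offsets and filters, no trend, array weights, the Gapdh 3 prime to 5 prime ratio as a covariate, a fit over all arrays, MM or MOON animals alone, the name prefix as a term, no block and each sample left out. Whether the samples of a group came from separate litters or surgeries was not given in the sources used here. Promoter sequences came from RefSeq for build GRCr8, scanned with Python 3.11.15.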

Additional observations from a re-analysis of the deposited data

How the results depend on the processing

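In the comparison within animals, 0 members passed at their main probe set in any of 21 other settings, the fit with no replicate block included (0 members, with the pairing dropped), and in that of non-regenerating with not axotomised neurons 0 passed in any of 23. In that of regenerating with not axotomised neurons 0 passed in 20 of 23. Klf7 passed in the rest, so that 1 member passed with an offset of 64 and 1 with array weights, and leaving out each sample gave 0 to 1. Over all probe sets the counts that passed were 3, 8 and 40, and in other settings 0 to 4, 2 to 2440 and 1 to 3131 (1504 without the regenerating sample of MM17). The block changed no other call. Within animals, the fit without the arrays that stand apart is the same as the fit without MM17. For regenerating against not axotomised neurons it is the same as the fit without MM15. The settings counted in these comparisons, and the values listed below, therefore hold a repeated fit. The dimmer tested probe sets of Klf6 and Klf7 passed in some settings, as given above.

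Sign changes, none of them past the threshold, were as follows (log2 fold changes, with the cause not tested). Within animals, Klf4 gave -0.05 with array weights, -0.15 without the arrays that stand apart, -0.38 in MOON animals and -0.15 to 0.23 when single animals were left out. The main Klf6 probe set gave 0.01 without the arrays that stand apart, 0.42 in MOON animals and -0.23 to 0.01 without single animals, and its second -0.38 in MOON animals. The second Klf7 probe set gave -0.22 to 0.02 without single animals. The second Klf9 probe set gave 0.01 without the arrays that stand apart, 0.23 in MOON animals and -0.19 to 0.01 without single animals. Non-regenerating against not axotomised, Klf10 gave 0.22 with quantile normalization, 0.27 with median centring and -0.52 to 0.15 without single samples. In that comparison the main Klf9 probe set gave 0.20 with median centring, 0.07 with array weights, 0.02 with the 3 prime ratio as a covariate, 0.01 in MM animals, 0.01 with the name prefix as a term and -0.30 to 0.04 without single samples. Regenerating against not axotomised, median centring gave 0.01 for Klf4, 0.01 for the second Klf6 probe set and 0.06 for the main Klf9 probe set. The second Klf6 probe set gave 0.21 with the 3 prime ratio, and the main one -0.08 in MM animals and -0.08 with the name prefix. Signal close to the floor limits Klf10, Cebpb and Cebpd, and 3 samples without axotomy limit both comparisons that use them.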
